A study of Mus musculus with 6 samples.

Results

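Hox genes encode homeodomain transcription factors that give cells their position along the body axis. They lie in 4 clusters, A to D, in which the order of the genes along the chromosome follows the order of their expression from head to tail, and genes at the same place in different clusters form paralog groups. HOX proteins bind DNA together with the cofactors PBX, MEIS and PREP, and Polycomb and trithorax proteins keep the clusters off or on. Skin fibroblasts keep part of this code in culture, so the Hox genes they express reflect the body site they came from.

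The genes described here are 38 Hox genes, taken by symbol from the 43629 genes of the deposited tables, and all 38 were found there. They comprise 10 genes of cluster A, 10 of cluster B, 9 of cluster C and 9 of cluster D. Of these 38 genes, 26 reached 1 TPM (a level corrected for transcript length and scaled to a common total in each library) in at least 3 libraries, and 30 had enough reads for the test.

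RNA was sequenced from primary dermal fibroblasts of newborn mouse skin after 6 days in culture, at passage 1, in 6 libraries. The 3 caNrf2 cultures carried Col1a2Cre together with caNrf2, an always active form of Nrf2, the transcription factor of the antioxidant response that is encoded by Nfe2l2. The 3 ctrl cultures carried Col1a2Cre alone. Cre was driven by Col1a2, a collagen gene of fibroblasts, and both groups were of a mixed strain, 50% C57Bl/6 and 50% FVB/N. The sources used here give neither the body site of the skin nor the age in days. The design text speaks of 3 mice per group, and where the libraries are not separate animals the p-values measure technical spread.

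The libraries held 30168400 to 45164208 expected counts. Nfe2l2, measured to check the genotype, had 352, 430 and 358 CPM (counts scaled to a common library size) in caNrf2 and 113, 103 and 112 CPM in ctrl, 3.48-fold higher in caNrf2. All 10 fibroblast markers were tested. In caNrf2 2 were higher (Pdgfra and Thy1) and 5 lower (Col1a1, Col1a2, Col3a1, Pdgfrb and Fbln1). Of the 10 log2 fold changes 5 were above 0 and 5 below. Over all genes tested, 12.5% were higher and 9.03% lower. The summed levels, mostly the 3 collagens, were 9416 to 11452 TPM in caNrf2 and 13738 to 19570 TPM in ctrl. Col1a1 was the most abundant at 3632 ± 273 TPM in caNrf2 and 5567 ± 1044 TPM in ctrl (SD, n = 3 each). All 10 leukocyte and macrophage markers were higher in caNrf2, with summed levels of 201 to 243 TPM against 26.5 to 82.6 TPM in ctrl, mostly Lyz2 (149 ± 14.4 TPM in caNrf2, 42.3 ± 22.4 TPM in ctrl). Of 8 tested skeletal muscle markers 6 were higher, with sums of 117 to 156 TPM in caNrf2 and 83.8 to 98.4 TPM in ctrl and Actc1 as the most abundant (59.1 ± 10.9 TPM in caNrf2, 35.8 ± 3.95 TPM in ctrl), while the stem cell markers Myf5 and Pax7 were at or near 0 TPM in both groups. Keratinocyte markers, led by Krt14, summed to 200.3 to 352 TPM in caNrf2 and 149 to 238 TPM in ctrl, and 2 of 9 tested were higher. Schwann cell and neural crest markers summed to 13.8 to 17.3 TPM in caNrf2 and 9.92 to 12.8 TPM in ctrl, with 2 of 6 tested higher. Endothelial markers, led by Cdh5, summed to 5.93 to 7.7 TPM in caNrf2 and 4.75 to 6.51 TPM in ctrl, and melanocyte markers, led by Mitf, to 15.97 to 21.9 TPM in caNrf2 and 15.4 to 20.8 TPM in ctrl. Pericyte and smooth muscle markers, led by Cspg4, summed to 34.6 to 50.2 TPM in caNrf2 and 37.3 to 46.5 TPM in ctrl, and chondrocyte and bone markers, led by Runx2, to 19.9 to 30.3 TPM in caNrf2 and 25.0 to 29.2 TPM in ctrl.

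The question addressed to the Hox genes was whether this positional code differed between caNrf2 and ctrl fibroblasts. It was lower in part: 8 of the 30 tested Hox genes were lower in caNrf2 and 0 were higher. The 8 were Hoxd1, Hoxd3, Hoxd4 and Hoxd8 of cluster D, Hoxb3 and Hoxb8 of cluster B, and Hoxc4 and Hoxc8 of cluster C. Their levels in caNrf2 ranged from 0.353 to 0.797 times those in ctrl, with the 4 cluster D genes at the low end of Hox genes called. Hoxc6, the most abundant Hox gene of these cultures, and posterior genes such as Hoxc10 and Hoxa10 did not pass the test.

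Called here means an adjusted p of at most 0.05 in the edgeR quasi-likelihood F test, with Benjamini-Hochberg adjusted p-values over the 15341 genes that had enough reads. Over all genes, 9.03% were called lower and 12.5% higher (1385 and 1917 genes), against 26.7% of the tested Hox genes called lower. With a correction for GC content, added after the data were seen, the split over all genes was 2511 lower (16.4%) and 1610 higher (10.5%), and 12 Hox genes were called lower. Adding the replicate block to that correction gave 13 lower Hox genes, beside 17.6% of all genes lower and 11.2% higher, and the block alone 10, beside 8.67% lower and 12.3% higher. Without caNrf2 replicate 3 the count was 4, beside 6.4% of all genes lower and 9.41% higher. Of the 30 log2 fold changes of Hox genes 27 were below 0, as were 50.4% of those of all genes, and the median was -0.31, beside -0.003 over all genes. In 14 Hox genes all 3 caNrf2 libraries lay below all 3 ctrl libraries, beside 20.1% of all genes, and in 0 they lay above, beside 22% of all genes. The count of higher Hox genes was also 0 at an unadjusted p under 0.05, with DESeq2 (13.4% of all genes higher) and with limma-voom (12.4%), and these tools called 9 and 8 Hox genes lower, beside 10.2% and 8.75% of all genes. The leukocyte, muscle and collagen marker levels given above moved between the same groups, and their part in the Hox values was not tested. In such bulk RNA, fewer cells of a type and less RNA per cell cannot be told apart.

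**Figure D1:**
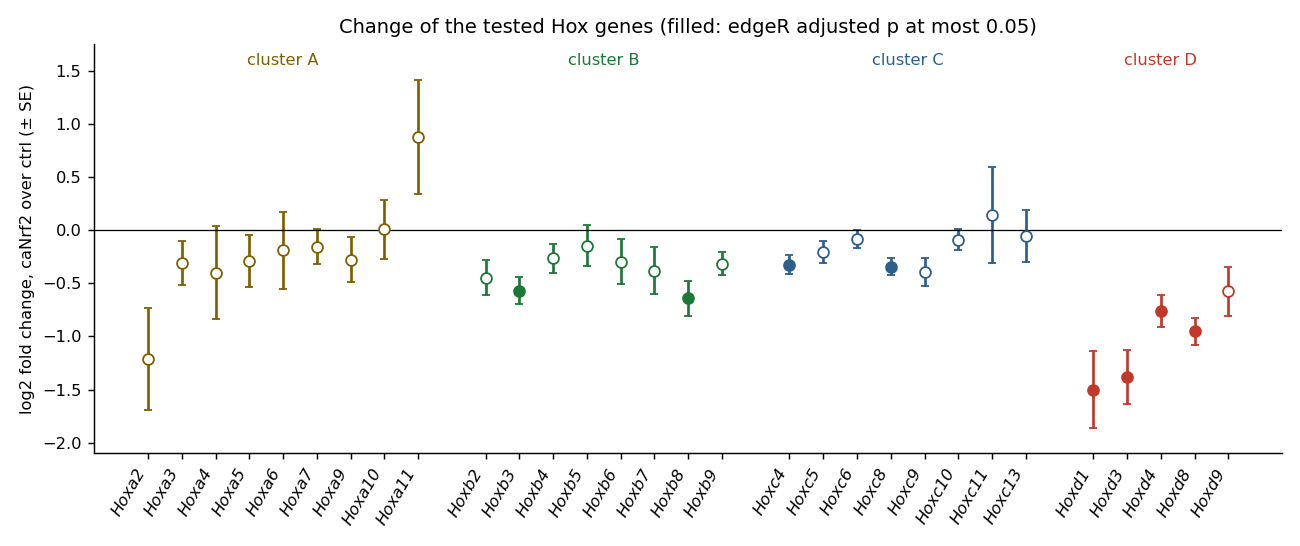
Log2 fold change of caNrf2 over ctrl with its SE for the 30 tested Hox genes, by cluster and in paralog order. Filled points are the 8 called genes, all below 0, of which 4 are the lowest-numbered tested genes of cluster D, and the open points of cluster A all failed the test.

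The HoxD genes Hoxd8, Hoxd4, Hoxd3 and Hoxd1 follow each other on chromosome 2 and were called together, and Hoxb8 shares its paralog group with Hoxd8. For this reason the sequences just upstream of their RefSeq start sites are shown, which are not in every case the starts of the most abundant transcripts. The Hoxd8 window ends at the start of the short form ENSMUST00000151380, while the most abundant form starts at 74704905. The most abundant Hoxd4 form starts at 74727074, downstream of the window shown. The Hoxd3 form of highest mean TPM in both groups, ENSMUST00000190553, starts at 74745722, also downstream of its window. Each is the 250 bases before the RefSeq start on GRCm38.p6, plus strand, written from 5′ to 3′. They cover chr2:74704365-74704614 for Hoxd8, chr2:74721728-74721977 for Hoxd4, chr2:74711743-74711992 for Hoxd3, chr2:74762730-74762979 for Hoxd1 and chr11:96281655-96281904 for Hoxb8. Capitals mark a match to one of the motifs searched.
Hoxd8: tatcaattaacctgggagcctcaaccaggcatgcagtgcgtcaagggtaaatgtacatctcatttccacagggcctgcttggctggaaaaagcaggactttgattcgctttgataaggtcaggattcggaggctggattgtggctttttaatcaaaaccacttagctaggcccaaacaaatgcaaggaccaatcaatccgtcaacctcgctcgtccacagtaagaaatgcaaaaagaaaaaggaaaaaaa
Hoxd4: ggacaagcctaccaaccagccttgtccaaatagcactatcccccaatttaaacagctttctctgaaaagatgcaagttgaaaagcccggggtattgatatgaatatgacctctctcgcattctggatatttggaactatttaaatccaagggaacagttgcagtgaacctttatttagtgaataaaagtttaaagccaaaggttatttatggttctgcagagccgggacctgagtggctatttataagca
Hoxd3: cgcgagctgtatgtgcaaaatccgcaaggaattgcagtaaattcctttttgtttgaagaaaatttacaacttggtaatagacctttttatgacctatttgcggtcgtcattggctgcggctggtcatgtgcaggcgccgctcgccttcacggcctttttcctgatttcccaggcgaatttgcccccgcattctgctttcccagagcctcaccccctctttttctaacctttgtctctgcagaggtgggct
Hoxd1: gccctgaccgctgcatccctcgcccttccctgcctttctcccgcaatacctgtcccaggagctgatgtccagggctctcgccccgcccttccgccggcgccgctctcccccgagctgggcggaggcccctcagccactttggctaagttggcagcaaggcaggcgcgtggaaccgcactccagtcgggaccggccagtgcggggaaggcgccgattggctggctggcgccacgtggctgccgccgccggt
Hoxb8: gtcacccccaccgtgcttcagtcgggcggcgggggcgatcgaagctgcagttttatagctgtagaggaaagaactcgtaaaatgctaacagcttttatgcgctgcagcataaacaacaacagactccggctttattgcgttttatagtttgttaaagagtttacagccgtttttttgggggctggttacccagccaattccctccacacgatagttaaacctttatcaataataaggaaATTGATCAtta

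The following motifs were searched on both strands in the 24 upstream windows that RefSeq gave for 22 of the Hox genes. The core of the antioxidant response element, which NRF2 binds with small MAF proteins, was searched as TGACNNNGC. It stood in 1 window, that of Hoxa6, and in 10.2% of 32851 windows of all genes. The MEIS motif TGACAG stood in 2 windows, of Hoxa2 and Hoxa3, and in 15.9% of all windows. The composite PBX-HOX motif TGATNNAT stood in 4 windows, of Hoxa2, Hoxb1, Hoxb8 and Hoxd11, and in 7.68% of all windows. The Hoxb8 match lies close to the start site, at the end of the sequence printed above. The 4 HoxD windows printed above held no match to these motifs, which says nothing of sites elsewhere. Hox windows held a median of 12.5 CG dinucleotides and all windows a median of 6, and the printed ones differed widely, with 24 in Hoxd1, 12 in Hoxd3 and in Hoxb8, 6 in Hoxd8 and 3 in Hoxd4.

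The 5 most abundant Hox genes belonged to paralog groups 6 to 10, and most genes of groups 12 and 13 were near 0. Hoxc6, a gene of the thoracic region, was the most abundant at 59.3 ± 1.16 TPM in caNrf2 and 64.7 ± 5.28 TPM in ctrl (SD, n = 3 each). It was followed over all libraries by Hoxc8 (33.6 ± 1.85 TPM in caNrf2, 44.5 ± 3.54 TPM in ctrl), Hoxd8 (20.7 ± 2.6 TPM in caNrf2, 39.6 ± 4.95 TPM in ctrl), Hoxb9 (25.7 ± 2.4 TPM in caNrf2, 32.5 ± 4.64 TPM in ctrl) and Hoxc10 (25.4 ± 0.817 TPM in caNrf2, 28.1 ± 3.72 TPM in ctrl). In ctrl only Hoxc6 and Hoxc8 had a higher mean than Hoxd8, while in caNrf2 Hoxb9 and Hoxc10 did too.

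The 8 Hox genes that had too few reads for the test mark the ends of the code. Hoxb1, which patterns the hindbrain, and Hoxd12 had 0 reads in all 6 libraries, which allows up to 3 reads in each. Hoxa13 and Hoxc12 had at most 1 read in a library, Hoxd13 at most 2, Hoxb13 at most 5 and Hoxd10 at most 17, and Hoxd11 had at most 4.56 expected counts. Hoxa13 and Hoxd13 pattern the digits and the genital region. Among the group 13 genes Hoxc13, which drives hair keratin genes in the hair follicle, was the exception at 1.35 ± 0.251 TPM in caNrf2 and 1.47 ± 0.38 TPM in ctrl.

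**Figure D2:**
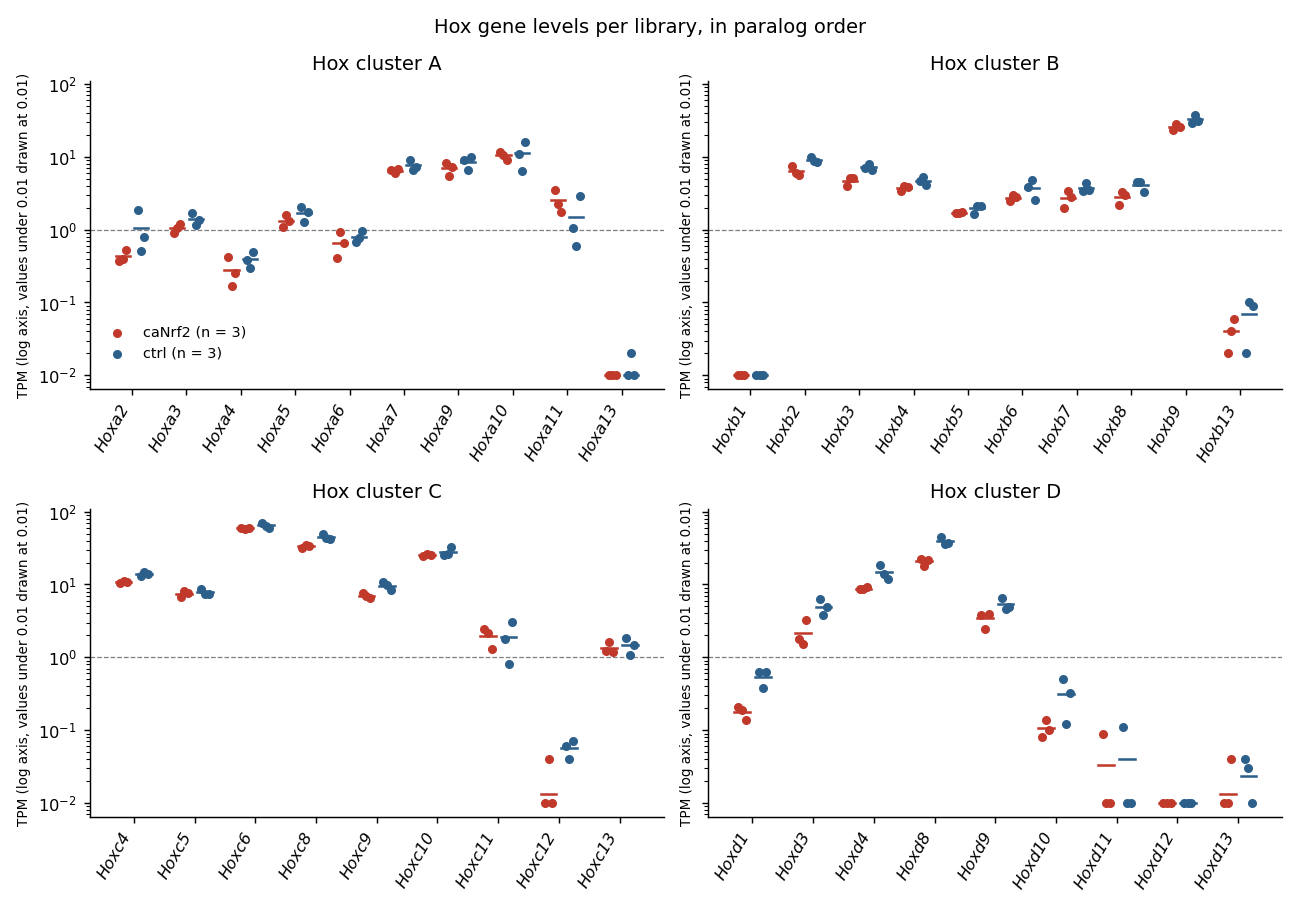
TPM of each of the 38 Hox genes in each library on a log axis, in 4 panels by cluster, with caNrf2 (red) left of ctrl (blue), a line at each mean and a dashed line at 1 TPM. Hoxc6 stands highest at 58.0 to 70.4 TPM over both groups, and in Hoxd8 and Hoxd1 all caNrf2 points lie well below the ctrl points.

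The summed level of the 38 genes was 261, 263 and 264 TPM in caNrf2 and 359, 326 and 332 TPM in ctrl, a ratio of means of 0.775. All 3 caNrf2 sums lay below all 3 ctrl sums. Cluster D summed to 37.2, 30.6 and 38.4 TPM in caNrf2 and 77.8, 59.2 and 59.98 TPM in ctrl (ratio 0.539), again without overlap. Cluster B summed to 50.5 ± 3.95 TPM in caNrf2 and 67.1 ± 7.74 TPM in ctrl, and cluster C to 146.9 ± 2.57 TPM in caNrf2 and 172 ± 7.29 TPM in ctrl. Cluster A summed to 30.1 ± 2.57 TPM in caNrf2 and 34.1 ± 8.99 TPM in ctrl, and its groups overlapped. Cluster D made up 13.5 ± 1.6% of the Hox sum in caNrf2 and 19.3 ± 2.04% in ctrl, and cluster C 55.9 ± 0.789% in caNrf2 and 50.8 ± 0.498% in ctrl. These sums are given as descriptions and were not tested.

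**Figure D3:**
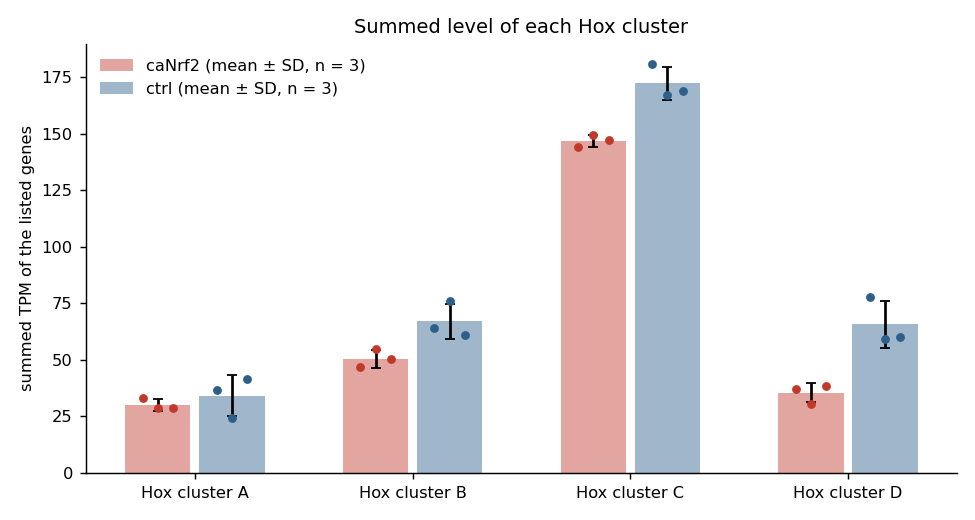
Summed TPM of the listed genes of each Hox cluster, with caNrf2 (red) left of ctrl (blue), bars for the mean, error bars for the SD and points for the 3 libraries of each group. The cluster D bars differ most in proportion, at 35.4 TPM in caNrf2 and 65.7 TPM in ctrl, and in cluster A the points overlap.

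Cluster D lies on the plus strand of chromosome 2 between 74668310 and 74765142 (GRCm38), a span of 96.8 kb. Of its 9 genes 5 were tested and 4 were lower in caNrf2, beside 9.03% of all genes. The median log2 fold change over the 5 was -0.95. Hoxd8 (ENSMUSG00000027102, 74704615 to 74707933), a trunk gene of the middle of the cluster, had 22.4, 18.7 and 21.7 CPM in caNrf2 and 48.8, 37.1 and 35.7 CPM in ctrl. The groups were well apart, and the highest ctrl library was replicate 1. Hoxd8 fell by 0.95 on the log2 scale with an SE of 0.13 (adjusted p = 0.00118, edgeR), a level 0.516 times that of ctrl. The call held in all 17 alternatives tried.

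Hoxd4 (ENSMUSG00000101174, 74711929 to 74729160), which helps to pattern the cervical vertebrae, had 7.74, 6.74 and 7.67 CPM in caNrf2 and 15.3, 11.7 and 10.5 CPM in ctrl. The caNrf2 libraries were close together and below every ctrl library. Its log2 fold change was -0.76 (SE 0.15, adjusted p = 0.0079, edgeR). Hoxd3 (ENSMUSG00000079277, 74711927 to 74748442), which shapes the first cervical vertebrae, had 2.03, 1.8 and 2.79 CPM in caNrf2 and 7.53, 4.17 and 5.65 CPM in ctrl. Its log2 fold change was -1.38 (SE 0.25, adjusted p = 0.00529, edgeR), so that its level in caNrf2 was 0.383 times that in ctrl. Both calls held in all 17 alternatives.

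The values of Hoxd3 and Hoxd4 are not independent. Of the annotated exon bases, 62.3% of those of Hoxd3 and 52.3% of those of Hoxd4 are shared on the same strand with each other or with Gm28230, a read-through gene across both, and RSEM divided the reads among them. The 3 IDs summed, as an alternative added after the data were seen, had 18.2, 15.3 and 20.2 CPM in caNrf2 and 36.8, 27.7 and 30.9 CPM in ctrl. The sum had a log2 fold change of -0.83 (SE 0.13, adjusted p = 0.00281, edgeR). Hoxd8, Hoxd1, Hoxb8, Hoxc4 and Hoxc8 share no exon bases with another ID.

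Hoxd1 (ENSMUSG00000042448, 74762980 to 74765142), the most anterior gene of the cluster, was expressed at a trace, with at most 21 reads in a library. It had 0.217, 0.18 and 0.138 CPM in caNrf2 and 0.592, 0.357 and 0.595 CPM in ctrl, without overlap. Its log2 fold change of -1.5 (SE 0.36) passed the test (adjusted p = 0.0194, edgeR). The call held in 11 of 16 alternatives, being lost with DESeq2 (adjusted p = 0.0509) and without any of 4 libraries: caNrf2 replicates 2 and 3 (0.063 and 0.0739) and ctrl replicates 1 and 3 (0.0674 and 0.0751), within a range of 0.0129 to 0.0751 over all of them. Hoxd9, at the posterior edge of the expressed part, had 4.71, 2.68 and 4.45 CPM in caNrf2 and 7.16, 5.05 and 5.42 CPM in ctrl. The groups did not overlap, but its log2 fold change of -0.58 did not pass the test (adjusted p = 0.112, edgeR).

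Other IDs within the HoxD interval had the same sign. All 3 of those tested were lower in caNrf2, beside 9.03% of all genes. Gm28230 had a log2 fold change of -0.7 (adjusted p = 0.0104, edgeR), and Hoxd3os1, on the minus strand, had 1.41, 0.857 and 1.11 CPM in caNrf2 and 2.14, 1.74 and 1.95 CPM in ctrl (log2 fold change -0.79, adjusted p = 0.0431, called in 12 of 17 alternatives). Haglr, a minus-strand long noncoding RNA between Hoxd3 and Hoxd1, had 0.108, 0 and 0.138 CPM in caNrf2 and 0.31, 0.29 and 0.595 CPM in ctrl, with at most 18 reads in a library (adjusted p = 0.0486, called in 10 of 16). Parts of Hoxd3os1 and Haglr overlap exons of Hoxd3 or Hoxd4, and with no stated strand setting their reads cannot be fully told apart from those of the coding genes.

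**Figure D4:**
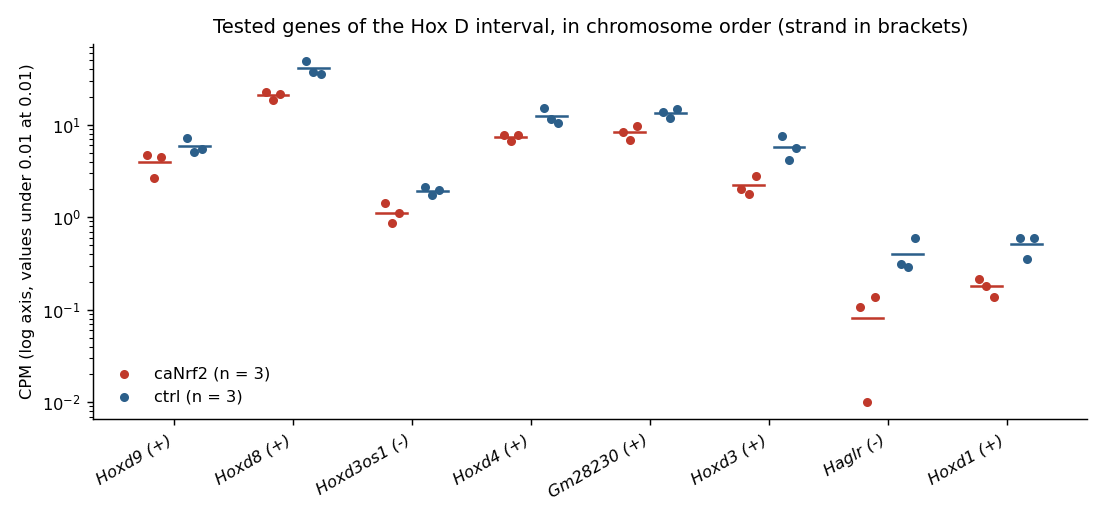
CPM per library on a log axis of the 8 tested genes of the HoxD interval, in chromosome order with the strand in brackets, caNrf2 (red) left of ctrl (blue) and a line at each mean. In each of the 8 genes the 3 caNrf2 libraries lie below the 3 ctrl libraries, and the Haglr point drawn at 0.01 had 0 CPM.

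Beyond the ends of the cluster most tested genes were not called. Of 11 tested genes within 1 Mb of either end, counted after the data were seen, 3 were lower and 1 was higher, with a median log2 fold change of -0.03. Lnpk, 88.9 kb before the cluster, was lower (-0.35, adjusted p = 0.0137, edgeR), and Mtx2, 60.7 kb after it, was not called (-0.01, adjusted p = 0.966). The other lower genes were Gm13652 and Hnrnpa3. The only higher gene was Nfe2l2, measured above to check the genotype, whose own locus lies 910.4 kb after the cluster on the same chromosome. Whether its reads came from that locus or from caNrf2 was not tested. Of the tested flanking genes, 0 of 10 were called lower and 1 higher for cluster A, 2 of 38 lower and 4 higher for cluster B, and 4 of 38 lower and 4 higher for cluster C, beside 9.03% lower and 12.5% higher over all genes.

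At the level of single transcripts, which RSEM estimates by dividing reads, the forms of Hoxd8 differed in their values. ENSMUST00000019749 had 11.99, 10.8 and 12.2 TPM in caNrf2 and 28.6, 21.5 and 20.7 TPM in ctrl. The short form ENSMUST00000151380 had 8.88, 3.86 and 5.9 TPM in caNrf2 and 8.7, 8.44 and 11.6 TPM in ctrl, and its groups overlapped. The Hoxd3 form from the far upstream start, ENSMUST00000111983, had 0.33, 0.02 and 0.4 TPM in caNrf2 and 2.33, 1.09 and 1.11 TPM in ctrl. No test was made on transcripts.

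Cluster B, on the plus strand of chromosome 11 between 96194316 and 96368256, had 2 lower genes of 8 tested (25%), beside 9.03% of all genes. Its median log2 fold change was -0.35. Hoxb3 (ENSMUSG00000048763, 96323326 to 96347930), a gene of the hindbrain and neck region, had 6.55, 7.76 and 7.53 CPM in caNrf2 and 10.5, 12.3 and 9.65 CPM in ctrl. The groups did not overlap, and the log2 fold change of -0.57 (SE 0.13) passed the test (adjusted p = 0.014, edgeR), a call that held in all 17 alternatives. Of its exon bases 52.9% lie opposite Hoxb3os, whose own log2 fold change was -0.23 (adjusted p = 0.517). Hoxb8 (ENSMUSG00000056648, 96281905 to 96285315), whose loss in mice causes excessive grooming, had 2.71, 3.47 and 3.27 CPM in caNrf2 and 4.99, 5.47 and 4.26 CPM in ctrl. Its log2 fold change was -0.64 (SE 0.16, adjusted p = 0.0246, edgeR). That call was lost without caNrf2 replicate 1 or 3 (adjusted p = 0.0557 and 0.0588) or ctrl replicate 1 or 2 (0.0538 and 0.0788), within a range of 0.00858 to 0.0788.

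The most abundant genes of cluster B lay near the threshold. Hoxb9, which patterns the ribs, had 31.8, 34.9 and 31.1 CPM in caNrf2 and 37.0, 47.1 and 37.7 CPM in ctrl. No caNrf2 library reached a ctrl library, but the log2 fold change of -0.32 (SE 0.11) did not pass the test (adjusted p = 0.0651, edgeR), and 7 of 17 alternatives called it. Hoxb2, a gene of the hindbrain, had 7.17, 5.21 and 4.81 CPM in caNrf2 and 8.43, 7.68 and 7.3 CPM in ctrl. Its log2 fold change of -0.45 (SE 0.17) was not called either (adjusted p = 0.0875), although 3 of 17 alternatives called it.

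The 2 Hoxb9 transcripts differed in their values. ENSMUST00000000010 had 6.99, 8.91 and 6.33 TPM in caNrf2 and 15.2, 16.8 and 12.3 TPM in ctrl, without overlap. ENSMUST00000174042, which starts close by, had 16.5, 19.3 and 18.9 TPM in caNrf2 and 14.0, 20.96 and 18.2 TPM in ctrl, with full overlap. Other Hox B genes (Hoxb4, Hoxb5, Hoxb6 and Hoxb7) had log2 fold changes between -0.38 and -0.15, none called. Among the noncoding IDs of the interval Hoxb5os was lower (log2 fold change -0.82, adjusted p = 0.0362, edgeR; called in 9 of 17 alternatives), while Gm53, which lies between Hoxb13 and Hoxb9, had 22.4, 23.6 and 23.4 CPM in caNrf2 and 24.3, 23.3 and 22.8 CPM in ctrl (adjusted p = 0.853).

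Cluster C, on the plus strand of chromosome 15 between 102921103 and 103036852, supplied the largest share of the Hox RNA in each library. Of its 8 tested genes 2 were lower (25%), beside 9.03% of all genes. The median log2 fold change of the 8 was -0.15. Hoxc8 (ENSMUSG00000001657, 102990607 to 102994111), which patterns the lower ribs, had 34.3, 34.8 and 34.0 CPM in caNrf2 and 47.9, 41.9 and 41.1 CPM in ctrl. The caNrf2 libraries were nearly equal and below all ctrl libraries. The log2 fold change was -0.34 (SE 0.08, adjusted p = 0.016, edgeR), and 16 of 17 alternatives kept the call, the exception being without caNrf2 replicate 3 (adjusted p = 0.0547, within a range of 0.00438 to 0.0547).

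Hoxc4 (ENSMUSG00000075394, 103018934 to 103036852), the most anterior gene of cluster C, had 12.1, 11.7 and 11.5 CPM in caNrf2 and 13.8, 15.6 and 14.7 CPM in ctrl. Its log2 fold change of -0.33 (SE 0.09, adjusted p = 0.0314, edgeR) is small, and 6 of 17 alternatives lost the call: no filter (adjusted p = 0.0526), the replicate block (0.0584), and leaving out caNrf2 replicate 2 or 3 or ctrl replicate 2 or 3 (0.0876 to 0.0961), within a range of 0.00384 to 0.0961. Hoxc6 had 45.1, 39.9 and 42.1 CPM in caNrf2 and 48.6, 44.0 and 41.8 CPM in ctrl. The groups overlapped, and the log2 fold change of -0.08 (SE 0.08) was not called (adjusted p = 0.531). Hoxc9 had a log2 fold change of -0.39 (adjusted p = 0.0621) and was called in 7 of 17 alternatives. Hoxc5 had a log2 fold change of -0.21 (adjusted p = 0.205) with groups that did not overlap. The posterior genes Hoxc10, Hoxc11 and Hoxc13 had log2 fold changes of -0.09, 0.14 and -0.06 with overlapping groups.

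Cluster A, on the minus strand of chromosome 6 between 52162511 and 52260880, had 0 genes called of 9 tested, beside 9.03% lower and 12.5% higher over all genes. At an unadjusted p under 0.05 there was 1 gene, Hoxa2, and DESeq2 and limma-voom called 0. Its median log2 fold change was -0.28. Hoxa10, which patterns the lumbar region and the uterus, had 12.2, 9.56 and 8.36 CPM in caNrf2 and 9.92, 5.98 and 14.3 CPM in ctrl. The ctrl values spanned all caNrf2 values, and the log2 fold change was 0.01 (SE 0.28, adjusted p = 0.993, edgeR). Its sign was not stable across alternatives. Hoxa9 had 8.58, 5.57 and 7.05 CPM in caNrf2 and 10.2, 6.21 and 9.29 CPM in ctrl, with overlap and a log2 fold change of -0.28 (SE 0.22, adjusted p = 0.394, edgeR). The GC correction with the replicate block called it lower (-0.36, adjusted p = 0.0458), the only call of Hoxa9 among 17 alternatives, within a range of 0.0458 to 0.732. The genes Hoxa3 to Hoxa7 had log2 fold changes between -0.4 and -0.16, and in each of them the groups overlapped.

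Hoxa11, a gene of the forearm and shank, had the highest log2 fold change of the tested Hox genes and was not called. It had 4.63, 2.73 and 2.07 CPM in caNrf2 and 1.24, 0.647 and 3.37 CPM in ctrl. The log2 fold change was 0.88 (SE 0.53, adjusted p = 0.276, edgeR), and ctrl replicate 3 lay within the caNrf2 values. Without that library, when 8.91% of all genes were called higher and 5.22% lower, it was 1.74 and called (adjusted p = 0.0288, edgeR), within a range of 0.0288 to 0.591 over all alternatives. Hoxa10, Hoxa11 and Hoxc11 each had their highest ctrl level in replicate 3 and their lowest in replicate 2, with Hoxc11 at 1.89, 0.826 and 3.21 CPM in the ctrl libraries.

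A ctrl library stood apart at the other end of the code. Hoxa2, the selector gene of the second branchial arch, had 0.37, 0.39 and 0.53 TPM in caNrf2 and 1.87, 0.51 and 0.78 TPM in ctrl, so that ctrl replicate 1 was the high one (log2 fold change -1.22, SE 0.48, adjusted p = 0.107, edgeR). Genes of the jaw and pharyngeal arches, picked after their values were seen, were high in the same library. Dlx5 had 0, 0.03 and 0.03 TPM in caNrf2 and 1.15, 0.03 and 0 TPM in ctrl, and Dlx6 had 0.06, 0.1 and 0.03 TPM in caNrf2 and 1.58, 0.05 and 0.01 TPM in ctrl. Hand2 had 0.34, 0.33 and 0.14 TPM in caNrf2 and 1.04, 0.27 and 0.2 TPM in ctrl. Among the ctrl libraries it had the highest CPM in 15 of 30 tested Hox genes, including Hoxd8, Hoxd4, Hoxd3, Hoxc8 and Hoxc6. Replicate 2 was the highest in 7 and replicate 3 in 8. Replicate 1 was not the highest for the called genes Hoxb3, Hoxb8, Hoxc4 and Hoxd1. Without ctrl replicate 1 the log2 fold changes remained below 0 and called for Hoxd8 (-0.81, adjusted p = 0.0024), Hoxd4 (-0.6, 0.0156), Hoxd3 (-1.16, 0.0182), Hoxb3 (-0.61, 0.0292), Hoxc8 (-0.28, 0.0311) and Hoxc4 (-0.38, 0.0283), all from edgeR. In all, 6 Hox genes were then called lower, beside 7.23% of all genes, and 0 higher, beside 9.81%.

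Read across the clusters by paralog group, the log2 fold changes were most negative in the anterior genes. Over all genes 9.03% were called lower and the median log2 fold change was -0.003. Of the anterior genes, groups 1 to 3, 3 of 6 tested were lower with a median log2 fold change of -0.89. Of the central genes, groups 4 to 8, 5 of 15 were lower with a median of -0.3, and all 15 estimates were below 0. Of the posterior genes, groups 9 to 13, 0 of 9 were called, with a median of -0.09, 3 at an unadjusted p under 0.05, 2 called by DESeq2 and 0 by limma-voom. All 3 genes of group 8 (Hoxb8, Hoxc8 and Hoxd8) were called lower. Group 9 had no call among its 4 genes, but all 4 estimates were below 0 with a median of -0.36, 3 had an unadjusted p under 0.05 and 3 had groups that did not overlap. The 2 tested genes of group 10 had overlapping groups. Summed levels were 14.9 ± 0.793 TPM in caNrf2 and 24.2 ± 2.77 TPM in ctrl for anterior genes, 163 ± 3.46 TPM in caNrf2 and 214 ± 18.5 TPM in ctrl for central genes, and 84.9 ± 2.56 TPM in caNrf2 and 100.6 ± 8.5 TPM in ctrl for posterior genes. The difference between the regions was not tested.

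Cofactors of HOX proteins were called in both directions. Of 9 tested genes of the PBX, MEIS and PREP families 1 was higher (11.1%) and 3 were lower (33.3%). Over all genes the shares were 12.5% higher and 9.03% lower. Meis1 was the most abundant of them per length, at 42.5 ± 2.63 TPM in caNrf2 and 30.5 ± 1.34 TPM in ctrl. It had 65.8, 70.02 and 64.8 CPM in caNrf2 and 48.8, 44.3 and 46.3 CPM in ctrl, a log2 fold change of 0.53 (SE 0.07, adjusted p = 0.00115, edgeR). Its relative Meis2 went the other way, with 22.7, 24.3 and 23.4 CPM in caNrf2 and 37.3, 32.6 and 34.6 CPM in ctrl (log2 fold change -0.57, SE 0.08, adjusted p = 0.00137). Both are proteins of the same TALE homeodomain family, and both calls held in all 17 alternatives. Meis3 was lower too (log2 fold change -0.28, adjusted p = 0.0478, edgeR) and was called in 8 of 17. The median over the 9 genes was -0.06.

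Of 23 genes for Polycomb and trithorax proteins, which keep Hox clusters silent or active, 1 was higher, Phc2 of the PRC1 complex (88.4, 96.2 and 87.2 CPM in caNrf2, 68.0, 80.0 and 70.9 CPM in ctrl; log2 fold change 0.31, adjusted p = 0.03, edgeR; called in 11 of 17 alternatives). The 1 higher gene is 4.35% of the list, beside 12.5% of all genes. None was called lower, beside 9.03% of all genes. Of the 23 genes 6 were lower at an unadjusted p under 0.05, and DESeq2 called 3 lower and limma-voom 0. The 23 log2 fold changes had a median of -0.12, with 18 below 0, as were 50.4% of those of all genes.

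Among 15 tested genes that act upstream of Hox genes, in retinoic acid metabolism and related patterning, 2 were higher and 2 lower (13.3% each), beside 12.5% higher and 9.03% lower over all genes. Zbtb16, encoding the PLZF repressor that acts on Hox genes in limb buds, had 1.73, 2.07 and 2.07 CPM in caNrf2 and 0.113, 0.112 and 0.0992 CPM in ctrl. That is a log2 fold change of 4.14 (SE 0.28, adjusted p = 1.75e-05, edgeR), the largest among these lists, called in all 17 alternatives. Crabp1, a binding protein for retinoic acid and the most abundant member at 488 ± 45.8 TPM in caNrf2 and 790 ± 78.9 TPM in ctrl, was lower (log2 fold change -0.63, adjusted p = 0.00356). Cyp26b1, which breaks retinoic acid down, was also lower (132, 106 and 125 CPM in caNrf2, 160, 149.8 and 205 CPM in ctrl; log2 fold change -0.5, adjusted p = 0.0272, called in 14 of 17). Aldh1a2, which makes retinoic acid, was higher at a trace level of 0.25 to 0.5 TPM in caNrf2 and 0.14 to 0.22 TPM in ctrl (adjusted p = 0.0441, called in 5 of 16 alternatives).

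Of 31 tested transcription factors that mark position without being Hox genes, 2 were higher (6.45%) and 4 lower (12.9%), beside 12.5% higher and 9.03% lower over all genes. Six2 had 0.785, 0.677 and 0.576 CPM in caNrf2 and 0.0846, 0.0447 and 0 CPM in ctrl (adjusted p = 0.00122, edgeR), near the level of single reads in ctrl. Twist1, a factor of mesenchyme, had 86.3, 60.1 and 67.2 CPM in caNrf2 and 144, 106 and 118 CPM in ctrl (log2 fold change -0.78, adjusted p = 0.00707). Shox2, a limb factor, had 24.6, 22.1 and 22.6 CPM in caNrf2 and 37.8, 28.5 and 32.6 CPM in ctrl (-0.51, 0.0114). Tbx15, which marks dorsal skin and acts on its pigment boundary, had 154, 153 and 168 CPM in caNrf2 and 192, 194 and 201 CPM in ctrl (-0.31, 0.0228, called in 15 of 17). The fourth lower gene was Zic1 (-0.44, 0.0229, called in 13 of 17). Prrx1, the most abundant, had 226 ± 42.2 TPM in caNrf2 and 253 ± 8.55 TPM in ctrl and was not called (adjusted p = 0.327).

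**Figure D5:**
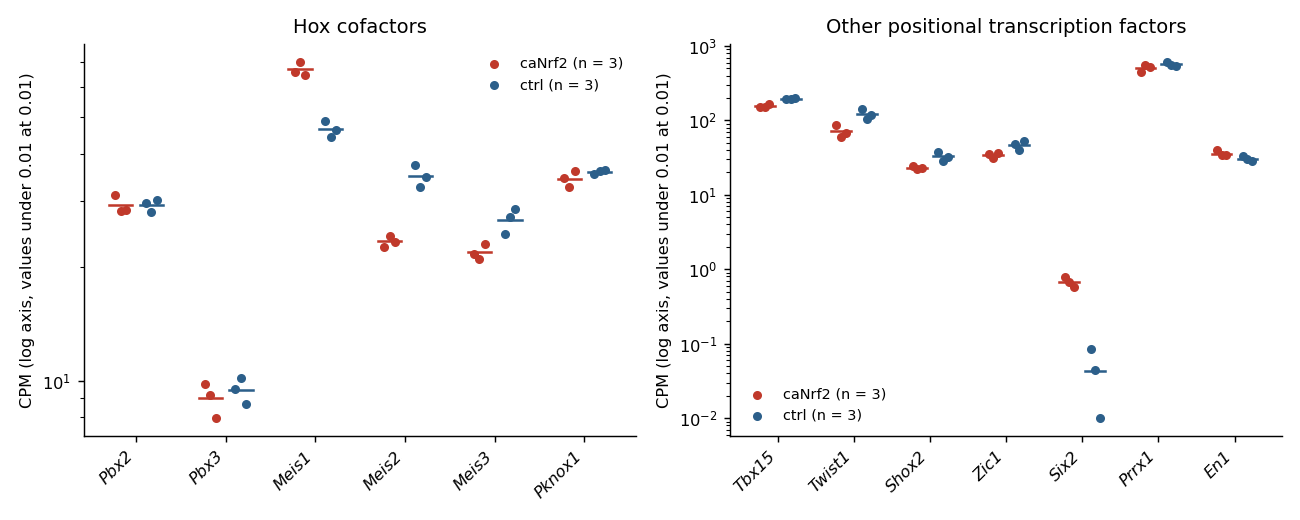
CPM per library on log axes of 6 Hox cofactors (left) and 7 other positional transcription factors (right), with caNrf2 (red) left of ctrl (blue) and a line at each mean. Meis1 is higher and Meis2 lower in all 3 caNrf2 libraries, Pbx2 and Pbx3 overlap, and on the right Six2 is higher and Twist1 and Shox2 lower in caNrf2.

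Of the noncoding genes of the Hox clusters 7 could be tested, and 3 were lower (42.9%), Hoxb5os, Hoxd3os1 and Haglr. Over all genes 9.03% were lower. The median log2 fold change of the 7 was -0.37. Hotairm1, the most abundant of the list per length (4.74 ± 2.05 TPM in caNrf2, 4.94 ± 1.5 TPM in ctrl), had 1.22, 0.677 and 0.369 CPM in caNrf2 and 0.733, 0.96 and 0.628 CPM in ctrl and was not called (adjusted p = 0.921). Evx1 and Evx2, the homeobox genes at the posterior ends of clusters A and D, had at most 0.02 TPM summed in a library and were not tested.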

How the data were processed

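RNA-seq was made from 6 dermal fibroblast cultures, grouped by their titles into caNrf2 and ctrl (3 each). Per the submitters' processing notes, the build was GRCm38 and the tools CASAVA 1.8 and RSEM 1.2.21; aligner, annotation release and strand setting: not given in the sources used here. The authors deposited expected counts, TPM and FPKM per transcript (104129 transcripts), per the file headers. Deposited TPM were summed per gene to compare levels between genes, and the deposited FPKM were not used.

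Expected counts were summed per gene, rounded and tested with edgeR 4.0.16 (filterByExpr, minimum count 10 and minimum total 15, TMM scaling, quasi-likelihood F test without block, Benjamini-Hochberg adjustment, threshold 0.05); CPM are on TMM-scaled library sizes. A read was worth 0.0221 to 0.0332 CPM. The test was checked on simulated counts. Alternatives were other scalings, a stricter or no filter, limma-voom 3.58.1, DESeq2 1.42.0, posterior mean counts, leaving out single libraries, a block for replicate numbers and, added after seeing the data, a GC correction, the same with the block, the summed Hoxd3 locus and counts of flanking genes.

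The 38 genes and all companion and marker lists were chosen with earlier results of these data known. All 38 are accounted for; every library is given for each called Hox gene, the 2 of highest mean TPM in each cluster, up to 3 called genes in each direction of a companion list and its most abundant member, and genes outside this rule (Hoxd9, Hoxa11, Hoxa2, Hoxc11, Gm53, Dlx5, Dlx6 and Hand2 among them) were added after their values were seen. Promoter sequences are from RefSeq (GRCm38.p6), which gave windows for 22 of the 38 genes; coordinates of genes are those of the deposited tables. A few companion and marker genes that this rule names are not reported here.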

Additional observations from a re-analysis of the deposited data

How the results depend on the processing

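Hoxb3, Hoxd3, Hoxd4 and Hoxd8 were called lower in each of the 17 alternatives run for each gene, with log2 fold changes of -1.11 to -0.81 for Hoxd8. The count of lower Hox genes was 8, and 7 to 12 across the scalings, filters, tools and the GC correction; it was 13 with the GC correction and replicate block together, and 4 to 9 when single libraries were left out, 4 without caNrf2 replicate 3. A Hox gene was called higher (1, Hoxa11) only without ctrl replicate 3; the range over left-out libraries was 0 to 1. Genes called lower over the whole table were 2511 with the GC correction and 2705 with it and the block, against 1385, and 823 to 1143 without single libraries. Companion genes called lower numbered 12, but 20 with the GC correction, 22 with the block added and 4 to 11 without single libraries; those called higher numbered 6, and 3 to 7 without single libraries. The log2 fold change of Hoxa10, 0.01 as reported, was -0.0128 with total counts, -0.0318 with upper-quartile factors, -0.0016 with DESeq2, -0.11 with the GC correction, -0.0523 with that and the block, and -0.27 to 0.34 without single libraries. In CPM instead of TPM, cluster B made up 23.1% of the Hox sum in caNrf2 and 23.5% in ctrl, and cluster C 52.3% in caNrf2 and 47.3% in ctrl. At 5 TPM, 3 genes of cluster A, 3 of B and 2 of D counted as detected. The causes of these shifts were not tested.

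Same-numbered libraries deviated from their group means with correlations of 0.214, 0.209 and 0.0953, all above 0. Differently numbered libraries had -0.242 to -0.0118, except caNrf2 replicate 3 with ctrl replicate 2 (0.112). The labels state no pairing, and these correlations cannot settle whether the numbers pair the samples. The main fit had no block, and the block was an alternative. With the replicate block 10 Hox genes were called lower, with 1888 genes higher and 1330 lower over the table, and the call of Hoxc4 was lost (adjusted p = 0.0584). At these depths genes such as Hoxd1, with at most 21 reads in a library, rest on few reads.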
